A study of Mus musculus with 64 samples.

Results

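The prefrontal cortex comparison set 8 mice that had gone through chronic stress against 8 unstressed mice, and covered every gene of the prefrontal cortex table. Its members were the 8 stressed and 8 control libraries of that tissue, 16 of the 64 libraries in the series. The table held 15697 genes, of which 14127 were tested after the 10% with the lowest mean level were left out. The study also sampled hippocampus, hypothalamus and whole blood, and the 2 other brain regions came from the same animals.

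All animals of both groups were male BALB/c mice aged 28 weeks. The stressed group, UCMS, went through 9 weeks of Unpredictable Chronic Mild Stress, a schedule of changing mild stressors that is used in mice as a model of major depressive disorder, and the control group was left unstressed. Collection fell 14 to 16 hours after the final stressor, at ZT12.5 to ZT14.5, which is early in the dark, active phase of a mouse. Each library came from a separate animal and was made as a directional library from 100 ng of total RNA after removal of ribosomal RNA, so it holds RNA with and without a poly(A) tail. The series' title speaks of corticosterone regulation and apoptotic pathways, and the comparison asks which transcripts of the prefrontal cortex differ after the stress schedule.

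The prefrontal cortex directs attention, decisions and the restraint of emotional responses, and it is one of the brain areas through which the release of adrenal glucocorticoids is held in check. Glucocorticoids act there through the receptors encoded by Nr3c1 and Nr3c2, which enter the nucleus and switch on genes such as Fkbp5, Sgk1, Per1 and Tsc22d3. In rodents, long stress is known to thin the dendrites and spines of prefrontal pyramidal neurons and to alter the expression of synaptic, neurotrophic and glial genes. The tissue is a mixture of excitatory and inhibitory neurons, astrocytes, oligodendrocytes, microglia and vessels. In such bulk samples, fewer cells of a type and less RNA per cell cannot be told apart.

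The dissected tissue carried genes of cortical excitatory neurons. Slc17a7, a vesicular glutamate transporter of these neurons, stood at the 98.7th percentile of all levels in the table. All 14 listed genes of cortical excitatory neurons passed the level filter, but so did 19 of 20 listed striatal genes, so passing it does not tell regions apart. Other tissues were present to differing extents, as the plot of marker lists by library shows. The mean of 19 striatal genes ran from 3.53 to 6.36 among controls and from 3.75 to 6.21 in UCMS, so striatal RNA varied widely in both groups. Control replicate 2 had a choroid plexus mean of 7.70, where the other 15 libraries lay between 3.48 and 4.96, and a cortical excitatory mean of 5.47, where the others lay between 6.199 and 6.741. UCMS replicate 5 stood apart in another way, as 29.95% of its genes lay more than 0.5 on the log2 scale from its group median, against 3.72% to 8.58% in 14 of the others and 18.84% in Control replicate 2. Hemoglobin RNA was high in Control replicate 1 and UCMS replicate 6 (Hbb-bs at 14.57 and 14.15, against 4.44 to 9.63 in the others). Many values below are therefore also given without Control replicate 2 or UCMS replicate 5.

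**Figure D1:**
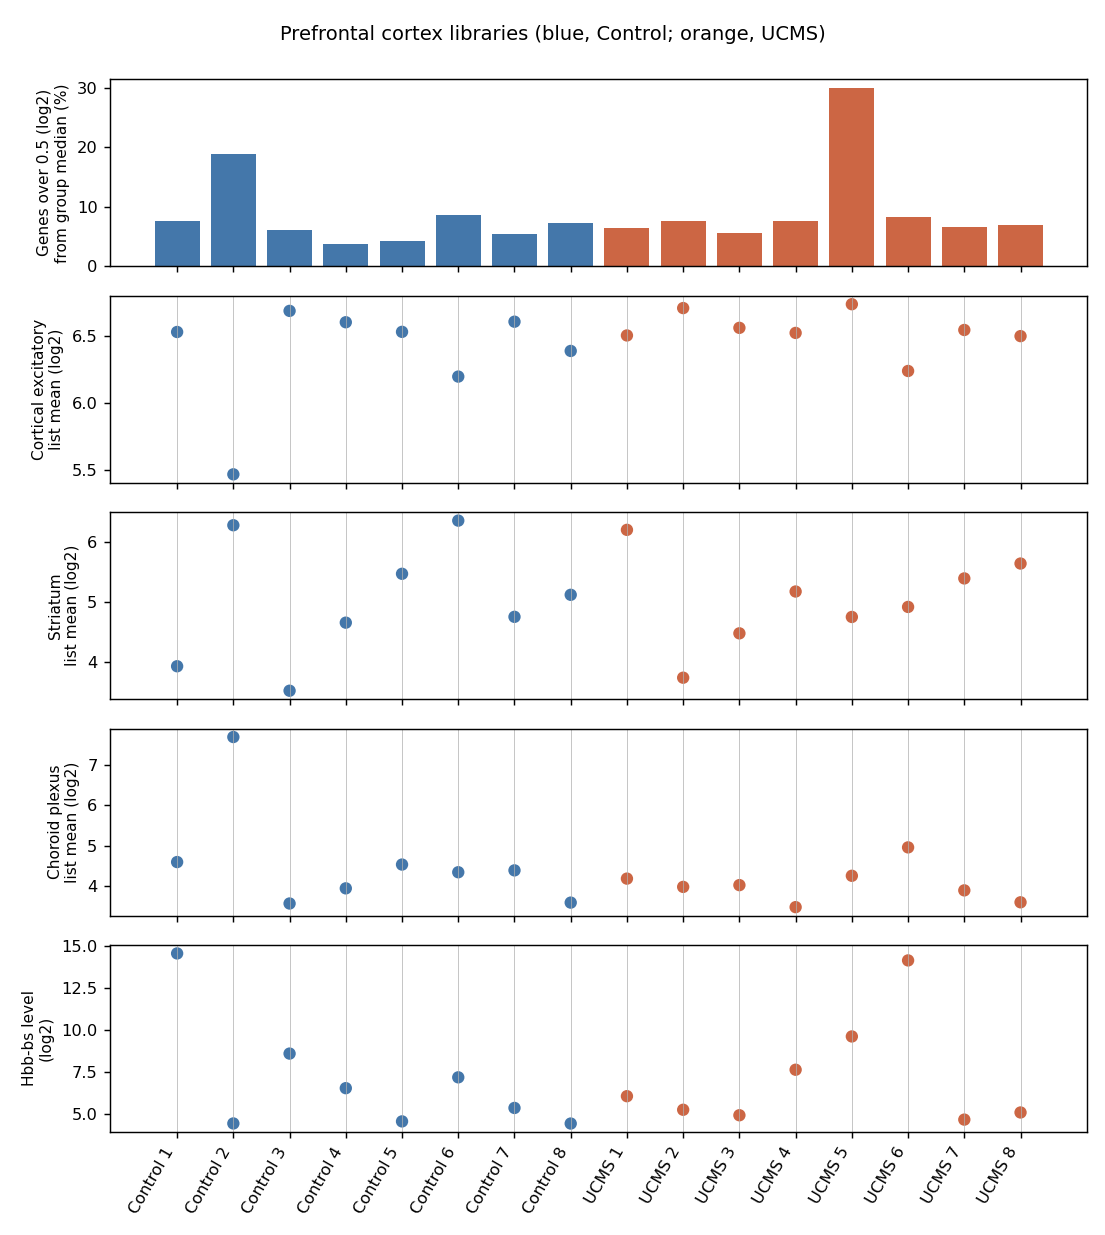
Values of the 16 prefrontal cortex libraries, 1 library a column, from top to bottom: the percent of tested genes lying more than 0.5 (log2) from the median of the library's own group, the mean log2 levels of the cortical excitatory, striatal and choroid plexus gene lists, and the log2 level of Hbb-bs. Control 2 and UCMS 5 stand out in the top panel with 18.84% and 29.95%, and Control 1 and UCMS 6 in the bottom one.

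No gene of the table separated stressed from control cortex beyond the spread between animals. With limma and Benjamini-Hochberg adjustment over 14127 genes, 0 genes had an adjusted p under 0.05 (0% of those tested), and the smallest adjusted p was 0.987. An unadjusted p under 0.05 was reached by 308 genes, 2.18% of those tested, 138 of them with the higher mean in UCMS (0.977%) and 170 with the lower (1.2%), fewer than the 706 that 5% of the genes would make. By an exact rank-sum test there were 383 genes at an unadjusted p under 0.05 and 0 after adjustment. The median absolute log2 difference was 0.068, below the median standard error of 0.099, and 60 genes differed by more than 0.5. In 0 of 14127 genes did the lowest library of one group lie above the highest of the other. On simulated data with these means and spreads and 200 changed genes, the same test recovered 69% of genes changed by 0.5 and 93.5% of genes changed by 1. The simulation drew each gene independently, without shifts shared by many genes of a library, so recovery in the real libraries may differ. The genes described below were therefore named for their small unadjusted p values or their place in a list, and all of them failed the correction (adjusted p of 0.987 or more with limma).

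The genes that led on the higher side had varied roles. Cstf1, a subunit of the cleavage stimulation factor that sets the 3′ ends of messenger RNAs (Entrez 67337, GRCm38 chromosome 2, 172370681 to 172382448), had log2 levels of 4.24, 4.27 and 4.45 (lowest, median and highest) in controls and of 4.382, 4.498 and 4.589 in UCMS. All 8 UCMS libraries lay above the control median and 4 above the highest control, a log2 difference of 0.18 ± 0.05 (SE), or 13.6%. Galns, a lysosomal sulfatase that degrades keratan and chondroitin sulfate (Entrez 50917, chromosome 8, 122578242 to 122611463), had levels of 3.36, 3.58 and 4.20 in controls and of 3.77, 4.22 and 4.33 in UCMS. Its groups overlapped through 2 high control libraries, and its difference of 0.47 ± 0.13 was the widest among the 12 leading genes on this side. Nop16, a nucleolar protein of large ribosomal subunit assembly, lay at 3.13 to 4.005 with a median of 3.54 in controls, and at 3.77 to 4.53 with a median of 4.04 in UCMS, a difference of 0.45 ± 0.13.

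Nsun5, which methylates the RNA of the large ribosomal subunit, differed by 0.20 ± 0.07, with all 8 UCMS libraries above the control median. Mtg1, a GTPase of mitochondrial ribosome assembly, differed by 0.24 ± 0.08, with 8 of 8 UCMS libraries above the control median. Trim27, a ubiquitin ligase, ran from 3.91 to 4.26 in controls and from 4.08 to 4.39 in UCMS (difference 0.21 ± 0.06), and 6 UCMS libraries lay above every control. The others on this side were Hinfp, a transcription factor of histone H4 genes, Acot8, a peroxisomal thioesterase, Dus4l, of the dihydrouridine synthase family, Blvra, which reduces biliverdin to bilirubin, Ciart and Mir686, with differences of 0.21 (Mir686) to 0.33 (Dus4l). Mir686 lies inside an exon of Psmb5, a proteasome subunit, on the same strand, so its value cannot be told apart from that gene's. Exons of Mtg1, Nsun5, Acot8 and, among the genes below, Zbtb33 and Plin4 overlap a gene on the other strand (Sprn, Pom121, Snx21, Tmem255a and Hdgfl2), which leaves their values uncertain. The same holds for Bcl2, Bdnf and Nr3c2 below, which overlap D630008O14Rik, Gm45346 and Gm10649 on the other strand. Hinfp and, among the genes below, Bax and Mmgt1 overlap Gm48604, Gm45808 and Mir5116 on the same strand.

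The smallest unadjusted p of the table was that of a gene known by its clone name, 2310047K21Rik, which was lower in UCMS. Its levels were 5.18, 5.30 and 5.52 in controls and 4.85, 5.01 and 5.29 in UCMS, with 7 of 8 UCMS libraries below every control (difference -0.32 ± 0.07, unadjusted p = 0.000375 with limma). It was named after its values were seen, since clone names were left out of the leading genes. Ppp1r3b, which ties protein phosphatase 1 to glycogen and so favours glycogen storage (Entrez 244416, chromosome 8, 35375739 to 35388139), had levels of 3.31, 4.44 and 4.87 in controls and of 2.99, 3.33 and 4.15 in UCMS. All 8 UCMS libraries lay below the control median and 4 below the lowest control, and the difference of -0.81 ± 0.23, or 42.8% less, was the widest among the 24 leading genes. Ocln, the tight junction protein occludin of brain endothelium (Entrez 18260, chromosome 13, 100496507 to 100552718), had levels of 3.35, 3.57 and 3.75 in controls and of 3.12, 3.23 and 3.60 in UCMS. The groups overlapped through 1 low control and 2 high UCMS libraries, and 6 UCMS libraries lay below every control (difference -0.29 ± 0.08). Of 17 tested markers of endothelium and pericytes 9 were higher and 8 lower, with a median of 0.0051, and Ocln had the lowest difference of them. Nudcd2, a NudC-domain co-chaperone, ran from 3.82 to 4.26 in controls and from 3.31 to 3.85 in UCMS (difference -0.32 ± 0.09).

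Mmgt1, a subunit of the complex that inserts proteins into the endoplasmic reticulum membrane, differed by -0.34 ± 0.10, and UCMS replicate 5 was its lowest library at 4.11. Perp, a p53 target that takes part in desmosomes and apoptosis, differed by -0.41 ± 0.13, with levels of 4.41 to 5.26 in controls and 4.12 to 5.07 in UCMS. Zbtb33, which encodes the methyl-CpG binding repressor Kaiso, and Rnf113a2, a ring finger gene, differed by -0.21 ± 0.07 and -0.24 ± 0.07. Sema3d, a secreted axon guidance cue, differed by -0.32 ± 0.10. For the 24 leading genes, no alternative of filter, variance prior, covariate, scaling or left-out library turned the direction, but their choice by small p fixes that direction in these samples. The plot of leading genes by library shows that no gene parted the groups.

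**Figure D2:**
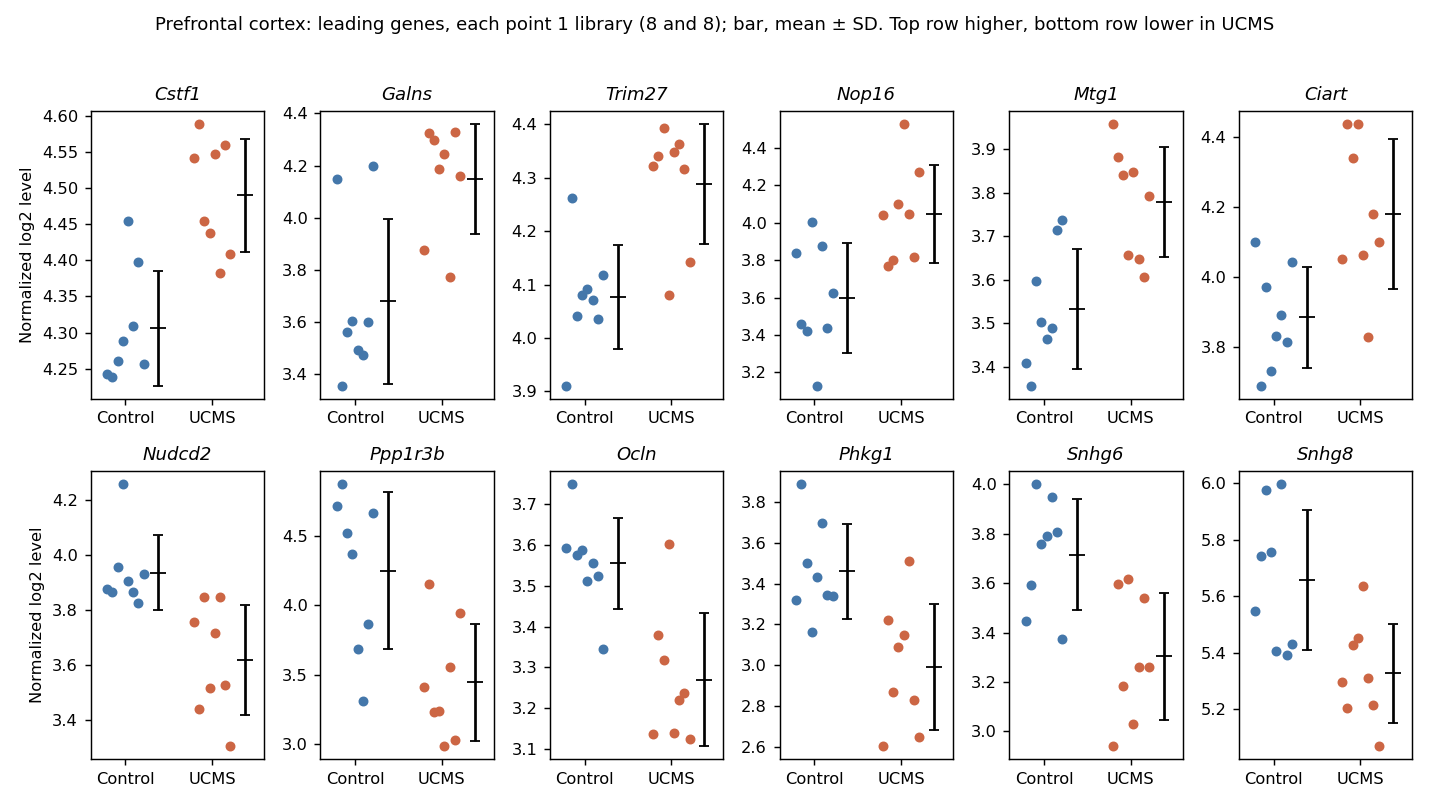
Normalized log2 levels of 12 genes in the 16 prefrontal cortex libraries, 1 point a library (blue, 8 controls; orange, 8 UCMS), with the group mean ± SD as a bar; each panel has its own axis, which does not start at 0. The 6 genes of the top row had higher and the 6 of the bottom row lower means in UCMS, and in every panel the 2 groups overlap.

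Glycogen in brain is held by astrocytes and is broken down when glycogen phosphorylase is switched on by phosphorylase kinase. Of 22 tested genes of glycogen metabolism, 13 were lower and 9 higher in UCMS with a median log2 difference of -0.05, beside 52% of all tested genes above 0 and a median of 0.0056. None passed the adjusted test, and 3 of 22 were lower at an unadjusted p under 0.05, as were 1.2% of all tested genes. Besides Ppp1r3b these were 2 subunits of phosphorylase kinase. Phkg1, a catalytic subunit (Entrez 18682, chromosome 5, 129863421 to 129898549), had levels of 3.16, 3.39 and 3.89 in controls and of 2.60, 2.98 and 3.51 in UCMS, and 6 of 8 UCMS libraries lay below every control (difference -0.47 ± 0.14). Exons of Phkg1 overlap those of Sumf2 on the other strand, and whether counting used strand is not given in the sources used here. Phkb, a regulatory subunit, had levels of 3.80, 3.89 and 3.99 in controls and of 3.29, 3.77 and 3.90 in UCMS. UCMS replicate 5 was its lowest library, and its difference of -0.17 ± 0.08 was -0.11 without that library.

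The other 19 members lay between -0.20 (Ugp2) and 0.13 (Ppp1r3f). Gys1, glycogen synthase, differed by 0.09 ± 0.11, and Pygb, the brain form of glycogen phosphorylase, by -0.05 ± 0.05. Ppp1r3c, the glycogen-targeting subunit of astrocytes, ran from 5.65 to 6.10 in controls and from 5.63 to 6.17 in UCMS, a difference of -0.11 ± 0.08. The list's median was -0.01 without UCMS replicate 5, -0.02 without that library and Control replicate 2, and -0.02 without UCMS replicate 8. The astrocyte list had 8 of 18 members higher and a median of -0.01, and its member Aqp4, the water channel of astrocyte endfeet, lay at 4.84 to 5.39 in controls and at 4.51 to 5.19 in UCMS (difference -0.24 ± 0.10). The part of astrocyte content in the glycogen values was not tested.

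Ciart, a repressor of the circadian clock that is itself switched on by CLOCK and BMAL1 (Entrez 229599, chromosome 3, 95878503 to 95882251), was the leading clock gene. CLOCK and BMAL1 bind the E-box CACGTG, and the Ciart promoter is shown because it carries 3 of them, in capitals, with their first bases 116, 58 and 44 bases before the RefSeq start (GRCm38.p6, chr3:95882204-95882353, minus strand, 5′ to 3′ along the gene, from RefSeq).
Ciart: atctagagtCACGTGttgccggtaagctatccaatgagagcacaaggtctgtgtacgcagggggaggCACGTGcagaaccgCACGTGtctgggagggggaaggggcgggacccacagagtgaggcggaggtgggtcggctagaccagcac
CACGTG reads the same on both strands. Windows of 250 bases before to 50 after the start held 3 or more of them in 0.0925% of 27025 genes and at least 1 in 8.09%. Among 19 tested clock genes with a promoter entry, 5 held at least 1 (26.3%) and Ciart alone held 3, where the shares over 9668 tested genes with an entry were 11.8% for at least 1 and 0.165% for 3 or more. A match in letters does not show that a factor binds there.

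Ciart levels were 3.69, 3.86 and 4.10 in controls and 3.83, 4.14 and 4.44 in UCMS. Of the UCMS libraries, 7 of 8 lay above the control median and 4 above the highest control, a difference of 0.30 ± 0.09. Among 23 tested clock genes 17 were higher, with a median of 0.05, where 52% of all tested genes were above 0. Ciart was the only clock gene at an unadjusted p under 0.05, as were 2.18% of all tested genes. Nr1d1, which encodes the repressor REV-ERB alpha, ran from 5.88 to 6.35 in controls and from 6.09 to 6.56 in UCMS (difference 0.17 ± 0.09). The differences were 0.12 ± 0.09 for Per1, 0.12 ± 0.11 for Per2, 0.12 ± 0.09 for Dbp, an output gene of the clock, and -0.09 ± 0.09 for Clock. Without Control replicate 2 and UCMS replicate 5, 9 of 23 members were higher (47.2% of all genes) and the list's median was -0.0037. In that setting the Ciart difference was 0.28 and that of Per1 0.03. With 1 library left out the list's median ran from 0.02 (without UCMS replicate 5) to 0.10 (without UCMS replicate 6). Samples were taken within a window of 2 hours of the day, and no value for each animal's hour was used here.

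RNAs of the nucleolus lay mostly on the lower side. Small nucleolar RNAs guide the chemical modification of ribosomal RNA, and most are cut from introns of host genes, some of which, such as Gas5 and the Snhg genes, make no protein. Many host transcripts begin with a run of pyrimidines after a C, the terminal oligopyrimidine tract known from ribosomal protein genes, by which their translation and decay respond to growth signals. The starts of Gas5 and Snhg8 are shown because both are among the hosts with small unadjusted p and carry such a tract, in capitals. RefSeq has 2 promoter entries for Gas5, and only the start shown carries the tract. Each sequence covers 35 bases before to 15 after the start, 5′ to 3′ (RefSeq, GRCm38.p6).
Gas5, chr1:161035131-161035180, plus strand: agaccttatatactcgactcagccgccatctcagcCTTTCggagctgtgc
Snhg8, chr3:123508322-123508371, minus strand: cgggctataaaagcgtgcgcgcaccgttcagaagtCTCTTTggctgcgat
A start at C followed by at least 4 pyrimidines was found in 3 of 12 tested host genes with a promoter entry (25%; the other was Snhg7), in 8 of 33 ribosomal protein genes (24.2%) and in 3.01% of all 27025 genes.

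Of 16 tested host genes, 11 were lower and 5 higher in UCMS, with a median difference of -0.07, and 4 of 16 were lower at an unadjusted p under 0.05 (1.2% of all tested genes; none adjusted). Snhg6 (Entrez 73824, chromosome 1, 9941959 to 9944118) had levels of 3.375, 3.776 and 4.001 in controls and of 2.94, 3.26 and 3.62 in UCMS. All 8 UCMS libraries lay below the control median and 5 below the lowest control (difference -0.41 ± 0.12). Snhg8 (Entrez 69895, chromosome 3, 123507552 to 123508404) had levels of 5.392, 5.645 and 5.997 in controls and of 5.07, 5.30 and 5.64 in UCMS. Again all 8 UCMS libraries lay below the control median and 5 below the lowest control (difference -0.33 ± 0.10). Snhg4 differed by -0.26 ± 0.09, with 6 UCMS libraries below every control and 1 above every control.

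Gas5, a growth-arrest transcript whose RNA in cultured cells can bind the glucocorticoid receptor (Entrez 14455, chromosome 1, 161034422 to 161038539), had levels of 4.64, 4.90 and 5.21 in controls and of 4.47, 4.66 and 4.92 in UCMS. Its difference was -0.22 ± 0.09, and -0.17 without Control replicate 2 and UCMS replicate 5. The list's median was -0.07 without both of those libraries and -0.04 without UCMS replicate 5 or Control replicate 8 alone, and without both Snhg6, Snhg8 and Snhg4 differed by -0.39, -0.36 and -0.25. Of the hosts that code for protein, Rpl13a differed by -0.04 ± 0.06 and Eef2 by 0.05 ± 0.05. Snhg12, which makes no protein, had the highest difference of the list at 0.05. The exons of Gas5 and Snhg8 overlap annotated small nucleolar RNAs on the same strand, and those of Snhg6 overlap Mcmdc2 on the other strand.

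Small RNAs of several types lay on the same side. By RefSeq gene type, all 19 tested small nucleolar RNA genes had a lower mean in UCMS, as did 9 of 9 small nuclear RNA genes, 5 of 5 guide RNA genes of the Cajal body, both Y RNA genes, both RNase P RNA genes and the RNase MRP RNA gene. RefSeq's small nuclear type includes Rnu3a and Rnu3b1 to Rnu3b4, genes of the U3 small nucleolar RNA, so these types are not fully separate. This set of 38 genes was put together after the values were seen, holds only types whose every tested member was lower, and gets no test. Outside it, 21 of 33 tested microRNA genes were lower and 11 higher (median -0.05). At an unadjusted p under 0.05, 2 were higher (0.977% of all tested genes). Mir686, whose value cannot be told apart from that of Psmb5, was among them. The 1 transfer RNA gene differed by 0.09. Within the set, the RNase MRP RNA gene differed by only -0.007 ± 0.19. The set's median difference was -0.23, beside 0.0056 for all genes. Of its 38 members 2 were lower at an unadjusted p under 0.05 (1.2% of all tested genes), and 0 passed the adjusted test. Snord22 had levels of 2.91, 3.89 and 4.79 in controls and of 2.42, 3.26 and 4.35 in UCMS (difference -0.64 ± 0.27). Snora78 had levels of 3.29, 3.84 and 4.79 in controls and of 2.09, 3.18 and 4.28 in UCMS (difference -0.65 ± 0.29). In both genes the groups overlapped widely.

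These RNAs varied together from library to library, so they are not 38 separate observations. The mean over the set was 5.97, 6.52 and 7.18 (lowest, median and highest) in controls and 5.74, 6.34 and 6.72 in UCMS. Control replicates 3 and 4 were the highest and UCMS replicate 8 the lowest, and Control replicate 8, at 5.97, lay below 7 of 8 UCMS libraries. Without UCMS replicate 8, 34 of 38 were lower and the median was -0.13. Without Control replicate 2 and UCMS replicate 5, 37 of 38 were lower and the median was -0.26. How much RNA this short was kept during extraction and library preparation is not measured in the table, and its part in these values was not tested.

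**Figure D3:**
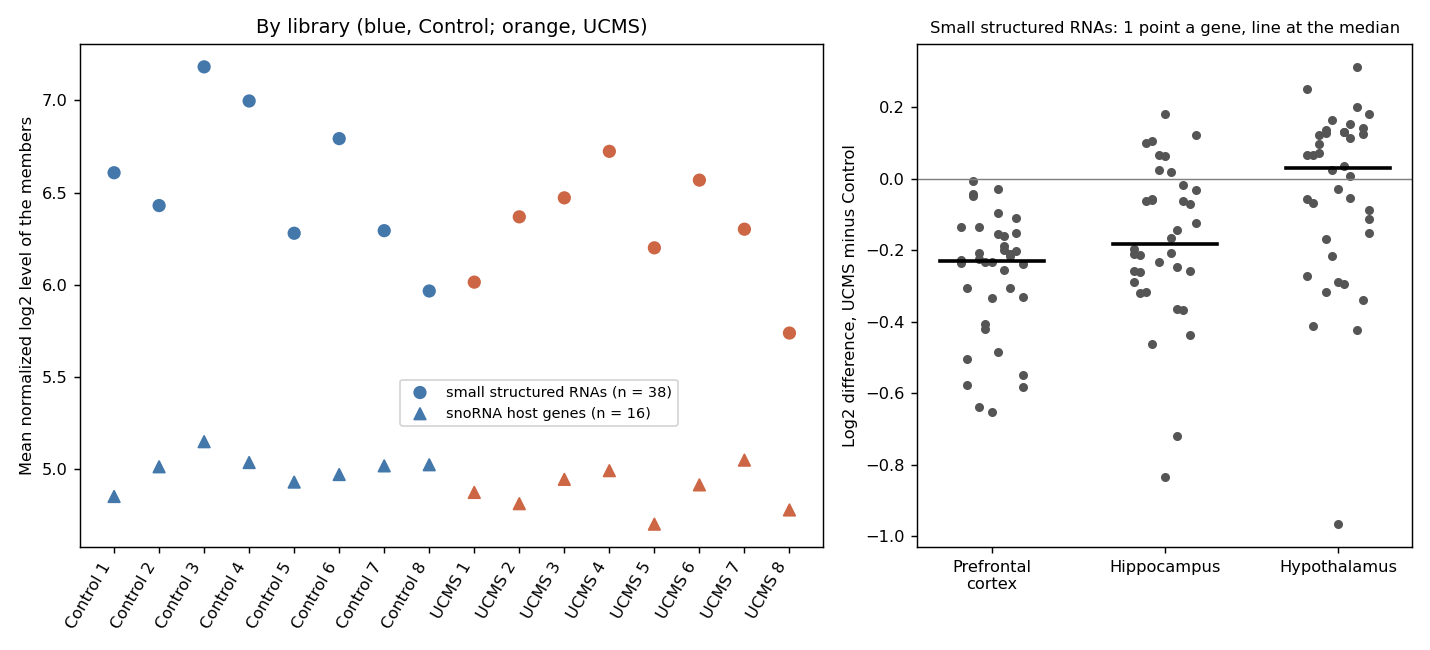
Left, the mean normalized log2 level of 38 small structured RNA genes (circles) and of 16 small nucleolar RNA host genes (triangles) in each prefrontal cortex library (blue, control; orange, UCMS), where the circles of the groups overlap between 5.97 and 6.72. Right, the log2 difference (UCMS minus control) of each of those small RNA genes in the cortex, the hippocampus and the hypothalamus, with lines at the medians of -0.23, -0.18 and 0.03.

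Genes switched on by glucocorticoids were higher in 22 of 28 tested members in UCMS, with a median difference of 0.08. Of these, 0 of 28 passed even at an unadjusted p under 0.05. Over all tested genes 52% were above 0 and 2.18% reached that p. Plin4, a coat protein of lipid droplets, had levels of 3.15, 3.97 and 5.16 in controls and of 3.41, 4.32 and 5.08 in UCMS, the widest difference of the list at 0.36 ± 0.26 (0.53 without Control replicate 2 and 0.26 without UCMS replicate 5). Sgk1, a kinase that governs ion channels and transporters, differed by 0.18 ± 0.17, with levels of 4.46 to 5.44 in controls and 4.51 to 5.54 in UCMS. Fkbp5, the co-chaperone that lowers the receptor's affinity for hormone, differed by 0.08 ± 0.09 and Tsc22d3, the anti-inflammatory factor GILZ, by 0.06 ± 0.08. Tiparp, at -0.21 ± 0.13, was the lowest.

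The mean level of the list was highest in UCMS replicate 5 and lowest in UCMS replicate 8, at 5.74 and 5.19, while the 8 controls lay between 5.23 and 5.42. The list's median was 0.03 without UCMS replicate 5 (20 of 28 higher), 0.03 without it and Control replicate 2 (19 of 28), and 0.09 without UCMS replicate 8 (26 of 28). The receptors themselves differed by little more than their standard errors. Nr3c1, the glucocorticoid receptor, had levels of 5.68, 5.95 and 6.25 in controls and of 5.13, 5.93 and 6.05 in UCMS, and its difference of -0.12 ± 0.11 was -0.02 without UCMS replicate 5. Nr3c2, the mineralocorticoid receptor, differed by -0.12 ± 0.12 and by -0.06 without Control replicate 2, and 9 of 14 receptors and chaperones of the receptor complex were higher with a median of 0.0036.

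Crh, corticotropin-releasing hormone, which in cortex is made by interneurons, had levels of 2.02, 4.03 and 4.46 in controls and of 3.60, 4.05 and 5.05 in UCMS. Its difference of 0.24 ± 0.30 was -0.02 without Control replicate 2. Crhbp, the protein that binds CRH, differed by 0.24 ± 0.17 and by 0.09 without that library.

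Lists of excitatory, synaptic vesicle, layer and potassium channel genes had most members above 0, and fewer of them lay above 0 without Control replicate 2. All 14 tested genes of cortical excitatory neurons had a higher mean in UCMS, with a median of 0.16, but without Control replicate 2 the count was 10 of 14 and the median 0.04, and without UCMS replicate 5 as well it was 8 of 14 and 0.0017. Slc17a7 had levels of 7.91, 9.25 and 9.41 in controls and of 8.81, 9.33 and 9.67 in UCMS, where Control replicate 2 was the lowest library. Its difference of 0.25 ± 0.18 was 0.09 without that library. The presynaptic vesicle cycle had 26 of 29 members higher (median 0.07), among them Snap25 of the fusion machinery (0.12 ± 0.14) and its partner Stx1a (0.17 ± 0.18). Without Control replicate 2 it had 17 of 29 higher and a median of 0.0053. In the same fit 49.4% of all genes were above 0.

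Other neuronal lists were mixed. Cortical layer markers went from 16 of 23 higher (median 0.10) to 10 of 23 (-0.02) without both libraries, potassium channels from 28 of 39 (0.06) to 16 of 39 (-0.02), and postsynaptic scaffold genes from 17 of 22 (0.05) to 8 of 22 (-0.0088), where 47.2% of all genes were above 0. AMPA, NMDA and kainate receptor subunits had 9 of 17 higher and a median of 0.0035, and 10 of 17 with 0.02 without both libraries. GABA-A receptor subunits had 3 of 12 higher with a median of -0.02, 3 of 12 with -0.06 without Control replicate 2, 8 of 12 with 0.03 without UCMS replicate 5, and 6 of 12 with -0.0024 without both libraries. Striatal genes had 10 of 19 higher (median 0.04), 16 of 19 (0.25) without both libraries and 2 of 19 (-0.10) without the hemoglobin-rich ones. The part of dissection in the neuronal values was not tested.

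**Figure D4:**
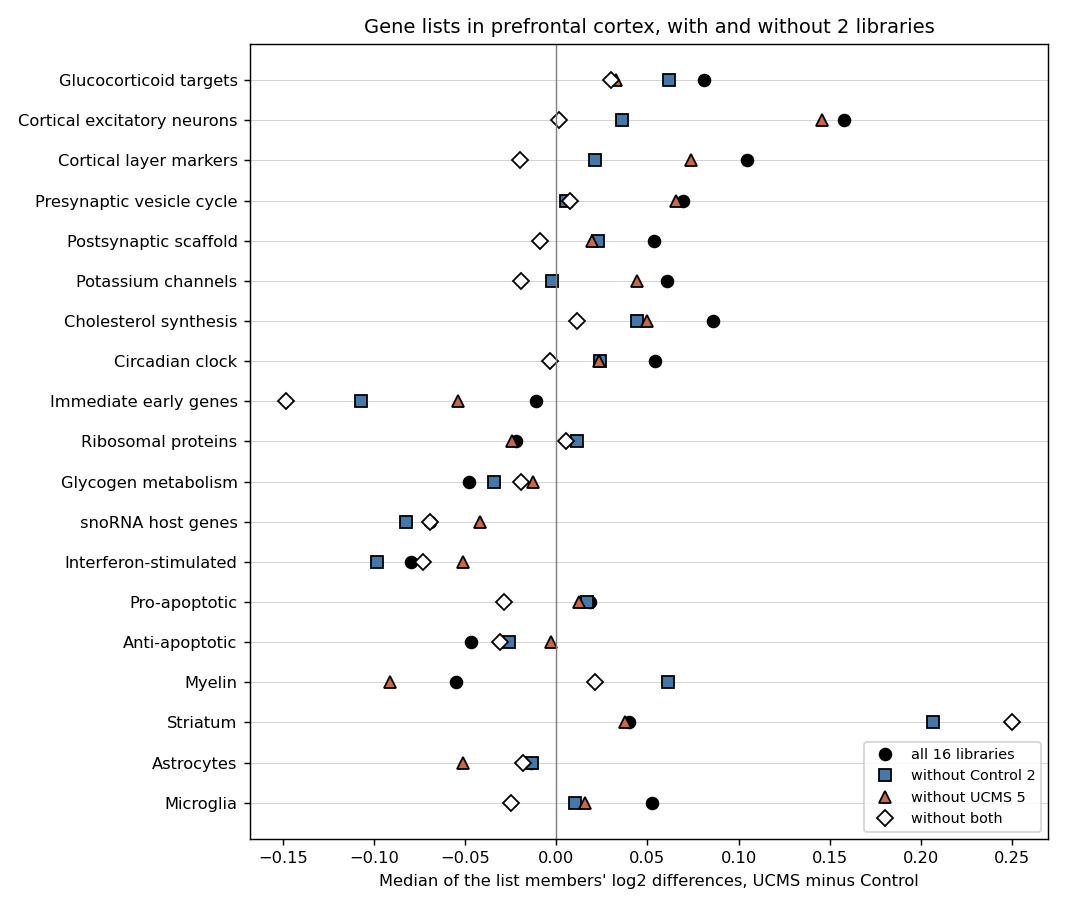
Median log2 difference (UCMS minus control) of the tested members of 19 gene lists in prefrontal cortex, from all 16 libraries (black circles), without Control 2 (blue squares), without UCMS 5 (orange triangles) and without both (white diamonds). The cortical excitatory list goes from 0.16 to 0.0017 and the immediate early list from -0.01 to -0.15 when both are left out, and the host genes of small nucleolar RNAs stay at -0.07.

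Immediate early genes, which neurons switch on within minutes of activity, had 9 of 23 members higher and a median of -0.01 in all libraries. The list depended on which libraries were kept. Without Control replicate 2 and UCMS replicate 5, 1 of 23 was higher and the median was -0.15, and without the hemoglobin-rich Control replicate 1 and UCMS replicate 6, 18 of 23 were higher and it was 0.06. Fos, a subunit of AP-1, had levels of 3.73, 4.83 and 5.30 in controls and of 3.753, 4.572 and 4.999 in UCMS (difference -0.19 ± 0.21, and -0.34 without Control replicate 2). Arc, which trims AMPA receptors at synapses, had levels of 6.58, 8.34 and 8.48 in controls and of 7.11, 7.92 and 8.37 in UCMS. Its difference of -0.09 ± 0.27 was -0.29 without Control replicate 2 and 0.09 without the hemoglobin-rich libraries. Egr1 differed by -0.01 ± 0.18, with 0.12 without the hemoglobin-rich libraries.

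Bdnf, the neurotrophin most studied in depression models, had levels of 2.997, 4.88 and 5.133 in controls and of 4.07, 4.68 and 4.91 in UCMS. Of the UCMS libraries 7 of 8 lay below the control median, yet the mean difference was 0.02 ± 0.25, since Control replicate 2 was the lowest library of all, and without it the difference was -0.20. Vgf, a secreted neuropeptide precursor that BDNF induces, had levels of 7.84, 8.03 and 8.15 in controls and of 8.06, 8.10 and 8.70 in UCMS. All 8 UCMS libraries lay above the control median (difference 0.20 ± 0.09), and without UCMS replicate 5 it was 0.13. Chrna4, a nicotinic receptor subunit, differed by 0.26 ± 0.11, and by 0.13 without Control replicate 2 and UCMS replicate 5.

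Markers of inhibitory neurons showed the same dependence. Pvalb, of fast-spiking interneurons, had levels of 3.91, 5.85 and 6.43 in controls and of 5.40, 5.62 and 6.46 in UCMS, with 1 of 8 UCMS libraries above the control median. Its difference was 0.19 ± 0.31, and -0.04 without Control replicate 2. Sst, the peptide of another interneuron class, differed by 0.06 ± 0.10 and by -0.02 without UCMS replicate 5. Vip, of yet another class, differed by 0.33 ± 0.23 and by 0.11 without Control replicate 2. Htr2a, the excitatory serotonin receptor of cortical pyramidal neurons, had levels of 4.28, 5.20 and 5.64 in controls and of 4.62, 5.52 and 5.76 in UCMS, and 7 of 8 UCMS libraries lay above the control median (difference 0.22 ± 0.19, 0.10 without Control replicate 2 and 0.08 without UCMS replicate 5 as well).

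The remaining genes of the fixed set, the receptors Crhr1, Ntrk2, Gria1, Grin2a, Grin2b, Htr1a, Drd1 and Drd2, the GABA-making enzymes Gad1 and Gad2, the activity-dependent factor Npas4 and the myelin gene Mbp, differed by -0.15 (Gad1) to 0.18 (Drd2), each by less than its standard error.

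Genes of cytokine signalling and interferon-induced genes had most members lower in UCMS (8 of 13, median -0.03, and 8 of 11), and most microglia markers were higher. C3ar1, the receptor for the complement fragment C3a, which microglia carry (Entrez 12267, chromosome 6, 122847138 to 122856161), had levels of 4.56, 5.06 and 5.28 in controls and of 3.94, 4.55 and 4.96 in UCMS. All 8 UCMS libraries lay below the control median and 4 below every control (difference -0.43 ± 0.14, and -0.38 without Control replicate 2 and UCMS replicate 5). Il1r1, the receptor for interleukin 1, had levels of 4.04, 4.42 and 4.83 in controls and of 3.85, 4.22 and 4.41 in UCMS, again with all 8 UCMS libraries below the control median (difference -0.29 ± 0.11). Among 18 tested microglia markers 13 were higher with a median of 0.05, and 8 of 18 with a median of -0.02 without both libraries. Aif1 was at 2.58 to 3.52 in controls and at 2.82 to 3.70 in UCMS (difference 0.24 ± 0.15), and C1qa, a complement C1q chain, differed by 0.06 ± 0.07.

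Interferon-stimulated genes had 3 of 11 tested members higher and a median of -0.08, with 2 of 11 lower at an unadjusted p under 0.05 (1.2% of all tested genes). Ifit3b, an antiviral protein whose reads may be shared with its near-copy Ifit3, had levels of 5.42, 5.59 and 5.85 in controls and of 4.996, 5.358 and 5.696 in UCMS (difference -0.22 ± 0.09). Ifit2, of the same family, differed by -0.37 ± 0.16, and by -0.22 without UCMS replicate 5, its lowest library at 4.97. Oasl2 differed by -0.41 ± 0.21. Rsad2, another list member, was 10.07 and 9.54 in the most hemoglobin-rich libraries of each group and 2.35 or 2.21 in the lowest, and its difference was 0.03 ± 1.12. Without the hemoglobin-rich libraries the list had 3 of 11 higher and a median of -0.07, and without UCMS replicate 5 it had 2 of 11 and -0.05. Leaving out UCMS replicate 6 alone gave 1 of 11 and -0.25, and leaving out Control replicate 8 alone 2 of 11 and -0.18.

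Genes of myelin were lower in 17 of 20 members with a median of -0.06, 14 of 20 were higher with 0.06 without Control replicate 2, and 20 of 20 were lower with -0.14 without the hemoglobin-rich libraries. With 1 library left out the median ran from -0.13 (without Control replicate 8) to 0.07 (without UCMS replicate 3). Gfap, the astrocyte filament protein that rises in injured tissue, differed by -0.13 ± 0.17. Choroid plexus genes were lower in 5 of 6 tested members, led by Ttr, the thyroxine carrier, with levels of 3.59, 6.06 and 11.78 in controls and of 2.79, 4.90 and 7.11 in UCMS. The Ttr difference of -1.65 ± 0.90 was the only one over 1 in the table, and it was -0.92 without Control replicate 2.

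Genes of apoptosis were split between the directions. Of 27 tested pro-apoptotic genes 15 were higher with a median of 0.02, or 11 of 27 with -0.03 without Control replicate 2 and UCMS replicate 5, and 0 reached an unadjusted p under 0.05. Bbc3, which encodes the BH3-only protein PUMA, had levels of 2.38, 3.38 and 3.59 in controls and of 3.15, 3.58 and 4.28 in UCMS, the widest difference of the list at 0.36 ± 0.19. Bax, the pore former of mitochondria, differed by 0.07 ± 0.09. Of 16 tested anti-apoptotic genes 6 were higher with a median of -0.05, or 8 of 16 with -0.0027 without UCMS replicate 5 and 3 of 16 with -0.03 without Control replicate 2 as well, and 0 reached an unadjusted p under 0.05. Bcl2 differed by -0.18 ± 0.11 and by -0.08 without UCMS replicate 5, its lowest library, and Mcl1, a short-lived protector of the same family, by -0.07 ± 0.05. Of 17 p53 targets 8 were higher (5 of 17 without Control replicate 2 and UCMS replicate 5). Perp was the only one of them at an unadjusted p under 0.05, as were 2.18% of all tested genes.

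Of the remaining lists, cholesterol synthesis had 19 of 22 members higher with a median of 0.09, and 13 of 22 with 0.01 without Control replicate 2 and UCMS replicate 5. Its member Mvd, which makes isopentenyl diphosphate from mevalonate diphosphate, had levels of 3.05, 3.40 and 3.71 in controls and of 3.33, 3.61 and 4.32 in UCMS. The Mvd difference was 0.28 ± 0.13, and 0.18 without UCMS replicate 5, its highest library. Cytosolic ribosomal proteins, many with near-identical pseudogenes, had 14 of 46 higher with a median of -0.02, and 29 of 46 with 0.01 without Control replicate 2. Heat shock and endoplasmic reticulum chaperones had 14 of 29 higher with a median of -0.00088, and 25 of 29 with 0.04 without UCMS replicate 5. Nuclear genes of oxidative phosphorylation had 22 of 42 higher with a median of 0.0086, and antioxidant enzymes 13 of 23 with 0.01, or 9 of 23 with -0.0047 without UCMS replicate 5. No member of these last 4 lists reached an unadjusted p under 0.05.

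Whether stressed animals differed more among themselves than controls was tested with little power. Absolute deviations from the group median gave 0 genes at an adjusted p under 0.05 with limma (0%), and 273 (1.93%) at an unadjusted p under 0.05, 206 of them wider (1.46%) and 67 narrower (0.474%) in UCMS. With simulated spreads 3 times wider in 200 genes, the test recovered 0 of them, and with 6 times wider spreads 3. The SD was wider in UCMS in 61.4% of genes, with medians of 0.172 in controls and 0.211 in UCMS. That share was 71.7% without Control replicate 2, 39.4% without UCMS replicate 5 and 50.6% without both. Phc3, a Polycomb protein, had the smallest unadjusted p of the named genes, with levels of 4.17 to 4.28 in controls and of 3.97 to 4.38 in UCMS. There, 4 UCMS libraries lay above and 4 below every control.

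The leading genes of prefrontal cortex were compared with the same genes in hippocampus and hypothalamus of the same animals, each table normalized separately. The difference between the regions' effects, tested within animals with limma, passed an adjusted p under 0.05 in 0 of 13712 genes against hippocampus (0%; 221 genes, 1.61%, at an unadjusted p under 0.05, and 591 without UCMS replicate 3) and in 0 of 13747 against hypothalamus (0%; 334, or 2.43%). The smallest adjusted p was that of Lsm1, a subunit of the ring that binds decaying messenger RNAs, at 0.352 against hippocampus, with differences of 0.23 in prefrontal cortex and -0.25 in hippocampus. On data simulated in the same way, with each gene drawn independently, these tests recovered 47% and 46% of effects that differed by 0.5.

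Ppp1r3b differed by -0.81 ± 0.23 in prefrontal cortex, where hippocampus had -0.30 ± 0.17 and hypothalamus 0.40 ± 0.27. C3ar1 differed by -0.43 ± 0.14, 0.12 ± 0.12 and 0.36 ± 0.20, in the same order, and Galns by 0.47 ± 0.13, -0.08 ± 0.14 and -0.03 ± 0.13. Ciart lay above 0 in all 3 regions, at 0.30 ± 0.09, 0.13 ± 0.10 and 0.11 ± 0.11. Snhg6 lay below 0 in all 3, at -0.41 ± 0.12, -0.05 ± 0.14 and -0.25 ± 0.13. Of the 38 small structured RNAs, 28 of 36 tested were lower in hippocampus (median -0.18) and 17 of 38 in hypothalamus (median 0.03), where 50.1% and 50.4% of all tested genes lay above 0. Interferon-stimulated genes, lower in 8 of 11 members in prefrontal cortex, were higher in only 2 of 11 in hippocampus (median -0.11). In hypothalamus 11 of 13 were higher (median 0.12), and whether lists differ between regions was not tested.

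**Figure D5:**
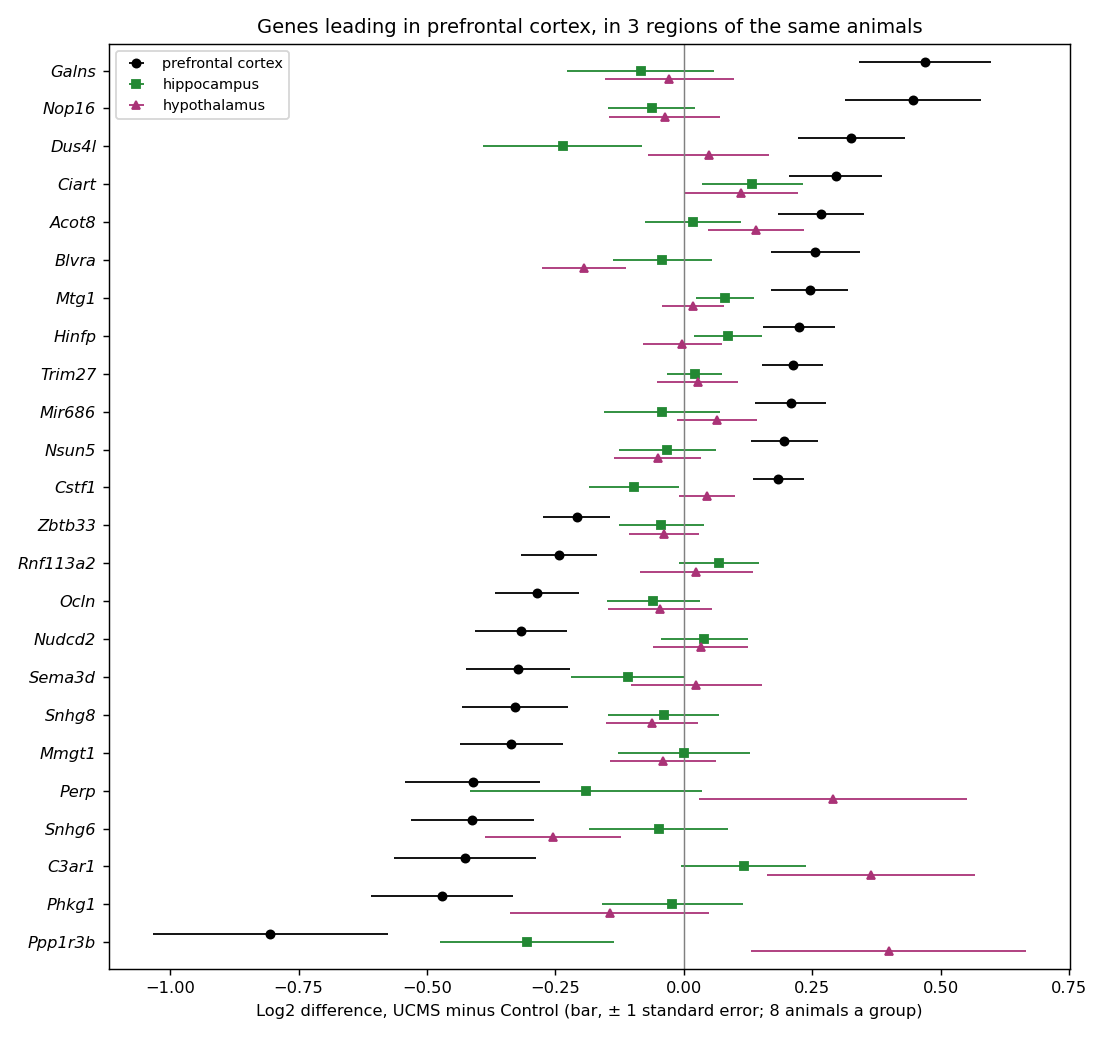
Log2 differences (UCMS minus control) with ± 1 standard error of the 24 genes that led in prefrontal cortex, in prefrontal cortex (black circles), hippocampus (green squares) and hypothalamus (purple triangles), 8 animals a group. The genes were chosen by their values in prefrontal cortex, so the black points lie far from 0 by choice, and for most genes the bars of the other regions reach 0.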

How the data were processed

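The 16 prefrontal cortex libraries were read from 1 table of 15697 genes by Entrez number and symbol, named per the labels as normalized read counts. The deposited values are used as log2 levels: they run from 0.125 to 18.38, and 89% of ranks hold the same value within 0.002 in every library, as after quantile scaling. The base of the log and the scaling are read from the values. The aligner, counter, strand setting and depth were not given in the sources used here, so no counting error can be given. The build is GRCm38.p4 per the submitters' processing notes.

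Genes in the lowest 10% by mean level were left out. UCMS and control were compared with limma 3.58.1 (R 4.3.3, eBayes with trend, no covariates, two-sided) on the deposited log2 values, with Benjamini-Hochberg adjustment over 14127 genes and a threshold of 0.05. An exact rank-sum test used all 12870 splits. Spread was tested on absolute deviations from the group median, and regions on within-animal differences, with the same tool, and each test was checked on simulated data. Named genes were the 12 with the smallest unadjusted p on each side, clone and model names left out, members of 48 lists at an unadjusted p under 0.05, a fixed set of stress, synaptic, interneuron, apoptosis and glial genes, the 12 of largest spread and the 6 first by the test of spread. Of 930 listed symbols 784 were tested. Genes described beyond that rule were chosen after their values were seen. The members, lists and tests were chosen with earlier results of these data known. Hippocampus and hypothalamus enter for comparison only, and blood was not used here. The result of 1 gene of the fixed set is left out and not reported here. Alternatives were other filters, variance priors, weights, covariates, scalings and libraries left out. Promoter sequences were RefSeq entries of GRCm38.p6, and gene coordinates came from GENCODE M21.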

Additional observations from a re-analysis of the deposited data

Results flagged for a closer look

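In 116 groups of 8 libraries (58 genes described above, in the controls and in UCMS), 17 had a library that stood far from the other 7 by Dixon's criterion, which chance meets in about 1 group in 20. Of these, 8 were UCMS replicate 5, 6 were Control replicate 2, 2 were UCMS replicate 4 and 1 was Control replicate 4. The 58 genes did not include the fixed-set genes given above only as a range. Hbb-bs, Alas2 and Rsad2, highest in Control replicate 1 and UCMS replicate 6, were not included either, so the tally by library holds for these 58 genes alone. All values are log2 levels.

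UCMS replicate 5 was lowest in its group for Mmgt1 (4.11, next 4.64), Ifit2 (4.97, next 5.98), Phkb (3.29, next 3.68), Nr3c1 (5.13, next 5.74) and Bcl2 (6.48, next 7.13). It was highest for Vgf (8.70, next 8.30), Mvd (4.32, next 3.73) and Sst (8.81, next 8.26). The same library held the highest or lowest value of all 16 for 52.7% of the tested genes, where a library other than it and Control replicate 2 held it for 4.4% to 12.1%.

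Control replicate 2 was lowest for Crh (2.02, next 3.45), Crhbp (2.79, next 3.66), Bdnf (2.997, next 4.13), Vip (2.48, next 3.96) and Slc17a7 (7.91, next 8.83), and highest for Ttr (11.78, next 7.44). It was also the library with the highest choroid plexus mean and the lowest cortical excitatory mean, and the part of those in its values was not tested.

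UCMS replicate 4 was highest for Crh (5.05, next 4.17) and Pvalb (6.46, next 5.76). Control replicate 4 was highest for Nudcd2 (4.26, next 3.96), and without it the Nudcd2 difference was -0.27 in place of -0.32.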

How the results depend on the processing

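The number of genes at an adjusted p under 0.05 was 0 in each alternative run for the 4 tests. At an unadjusted p under 0.05 the main count of 308 ran from 268 (without Control replicate 2) to 450 (without UCMS replicate 4) when 1 library was left out, and from 226 with a filter of 30% to 462 with array weights otherwise. Replicate numbers did not pair the samples: same-numbered libraries correlated at -0.127 to 0.551 and only replicates 4 and 8 correlated best with their own number, and the fit with a replicate block gave 459 genes at an unadjusted and 0 at an adjusted p under 0.05. The spread count of 273 was 943 with deviations from the group mean and 495 on a log scale, and 185 to 340 with 1 library left out. The count against hippocampus ran from 177 to 591 and that against hypothalamus from 268 to 509 (without UCMS replicate 4) with 1 library left out. Some small differences changed sign. With 1 library left out they ran from -0.0208 to 0.329 for Crh, -0.204 to 0.101 for Bdnf, -0.149 to 0.0796 for Egr1, -0.287 to 0.0169 for Arc, -0.035 to 0.325 for Pvalb and -0.0209 to 0.0942 for Sst. Without the hemoglobin-rich libraries Egr1 was 0.118 and Arc 0.0929. With array weights Bdnf was -0.121, Pvalb -0.0377 and Sst -0.00902, and with myelin as a covariate Bdnf was -0.0481. Without Control replicate 2 and UCMS replicate 5, chosen after seeing the data, Bdnf was -0.161, Pvalb -0.003, Sst -0.03 and Bax -0.0154, and without the hemoglobin-rich libraries as well Crh was -0.008, Bdnf -0.0488, Sst -0.0558 and Bax -0.00467. The causes were not tested. The precision is set by the 8 animals a group, since the files used here give no depth.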

Other observations

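Lists not described above had few members at an unadjusted p under 0.05 and none at an adjusted one (limma). Of the acetylcholine receptors, 8 of 9 were higher in UCMS and the median difference (log2) was 0.12, where 6 of 9 and 0.04 were found without Control replicate 2 and UCMS replicate 5. Dopamine and adrenergic receptors had 8 of 11 higher with a median of 0.07 (7 of 11 with 0.04 without both), and serotonin system genes 5 of 13 with -0.04. Genes that make and carry GABA, the main inhibitory transmitter, had 3 of 10 higher with -0.06, and 6 of 10 with 0.0067 without Control replicate 2. Long noncoding RNAs of the nucleus had 3 of 12 higher with -0.08, led by Snhg14 at -0.34, and 6 of 12 with -0.01 without UCMS replicate 2. Markers of meninges had 1 of 7 higher with -0.17, and 4 of 7 with 0.01 without UCMS replicate 7. Those of olfactory areas and septum had 2 of 9 with -0.22, and 6 of 9 with 0.08 without Control replicate 2.

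The genes with the widest spread within groups were those of red blood cells. Hbb-bs had a pooled SD of 3.35 on the log2 scale, far above the 1.99 of Ttr.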
